A study of Mus musculus with 8 samples.

Results

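The genes described here encode 10 enzymes of glycolysis: the hexokinases Hk1 and Hk2, glucose-6-phosphate isomerase (Gpi1), the phosphofructokinase subunits Pfkl and Pfkp, and Aldoa, Tpi1, Pgk1, Eno1 and Ldha. They were chosen by gene symbol, and all 10 were found, each on 1 of the 31574 gene rows of the deposited expression table. RNA had been sequenced from c-kit+ acute myeloid leukaemia cells of C57BL/6 mice, taken from bone marrow of the femur and tibia 7 days after treatment, in 8 libraries that form 4 groups of 2. The series was built to set loss of Ezh2 against loss of both Ezh1 and Ezh2, the alternative catalytic subunits of Polycomb repressive complex 2. The Ezh1-present oil group had the genotype Ezh1+/+ Ezh2+/+ in the sample labels and received corn oil. The Ezh1-present tamoxifen group was Ezh1+/+ Ezh2-/- and received tamoxifen at 10 mg per kg per day in 5 doses. The Ezh1-null oil group was Ezh1-/- Ezh2+/+ and received corn oil. The Ezh1-null tamoxifen group was Ezh1-/- Ezh2-/- and received the same tamoxifen course. For the series as a whole the submitters call the Ezh2 alleles flox/flox where Ezh2 was kept and Δ/Δ where it was deleted. All libraries share the prefix Moz in their titles. The labels used here give neither the Cre driver nor whether replicates came from separate animals or leukaemias, so p-values measure only the spread between these libraries, which may be technical. Tamoxifen and Ezh2 deletion always came together and cannot be told apart. Ezh1 genotype and a difference between separately established leukaemias cannot be told apart either.

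Glycolysis converts glucose to pyruvate in the cytosol. Hexokinases trap glucose as glucose-6-phosphate, Gpi1 converts it to fructose-6-phosphate, and phosphofructokinase carries out the committed step. Aldolase, triose-phosphate isomerase, phosphoglycerate kinase and enolase act further down the pathway, and Ldha reduces pyruvate to lactate. Glucose-6-phosphate also feeds the pentose phosphate pathway, which supplies NADPH and ribose. In blood cells and leukaemias these genes are known targets of hypoxia-inducible factors and Myc, and lactate production can be high even where oxygen is available.

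Promoter windows of 300 bases, from 250 before to 50 after a RefSeq start site on GRCm38, were read for all 10 genes. The windows of Hk1 (chr10:62379859-62380158, minus strand), Gpi1 (chr7:34230287-34230586, minus strand) and Pfkp (chr13:6648722-6649021, minus strand) are shown because these genes differed most between Ezh1 genotypes. The window of Ldha (chr7:46845554-46845853, plus strand) is shown because it holds the most motif matches. Sequences run 5′ to 3′ on the gene's strand, and capitals mark the E-box CACGTG bound by Myc family proteins and the hypoxia-response cores ACGTG and GCGTG on either strand, so that CACGT and CACGC are the same cores read on the other strand. Each E-box holds the core ACGTG on both strands.
Hk1: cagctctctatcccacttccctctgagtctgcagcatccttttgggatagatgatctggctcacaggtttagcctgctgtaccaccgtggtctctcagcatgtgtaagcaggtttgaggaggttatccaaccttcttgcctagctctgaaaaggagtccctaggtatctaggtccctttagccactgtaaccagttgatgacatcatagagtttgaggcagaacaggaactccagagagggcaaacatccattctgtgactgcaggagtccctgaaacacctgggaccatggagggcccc
Gpi1: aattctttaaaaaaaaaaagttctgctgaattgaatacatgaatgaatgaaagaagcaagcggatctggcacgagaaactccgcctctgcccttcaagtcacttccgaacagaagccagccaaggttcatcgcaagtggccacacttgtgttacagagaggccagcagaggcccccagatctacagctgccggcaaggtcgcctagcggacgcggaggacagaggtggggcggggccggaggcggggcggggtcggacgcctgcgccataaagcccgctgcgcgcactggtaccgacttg
Pfkp: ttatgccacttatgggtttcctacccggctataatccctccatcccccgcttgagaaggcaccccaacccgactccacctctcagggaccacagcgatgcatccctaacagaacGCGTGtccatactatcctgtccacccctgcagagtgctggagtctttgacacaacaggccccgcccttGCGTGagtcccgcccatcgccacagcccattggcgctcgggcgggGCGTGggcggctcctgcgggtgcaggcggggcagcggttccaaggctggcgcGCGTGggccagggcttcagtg
Ldha: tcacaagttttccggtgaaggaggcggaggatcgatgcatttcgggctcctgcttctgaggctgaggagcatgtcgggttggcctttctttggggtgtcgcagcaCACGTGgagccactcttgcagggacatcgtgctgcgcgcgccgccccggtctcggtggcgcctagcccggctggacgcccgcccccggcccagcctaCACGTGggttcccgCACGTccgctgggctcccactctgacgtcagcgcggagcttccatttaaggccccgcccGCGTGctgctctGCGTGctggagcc
Ldha held 2 E-boxes and 7 cores, overlaps counted. Pfkp held 4 cores, Hk2, Pgk1 and Eno1 held 2 each, and Pfkl held 1, none of them with an E-box. Hk1, Gpi1, Aldoa and Tpi1 held neither motif in this window. A core was therefore found in 6 of 10 windows and an E-box in 1 of 10, beside 43.8% and 7.15% of the 32851 windows of the same length in the mouse table. Hk1 and Ldha had 2 such windows, and Aldoa and Eno1 had 3, but only the 1 nearest the deposited gene start was read. The 32851 windows can hold several per gene. These matches describe letters only and say nothing of binding.

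The deposited values are log2 normalised expression centred on each gene's median over the 8 libraries, so they show how libraries differ for a gene but not which gene is expressed most. No read counts accompany them and the sequencing depth is unknown. A value was taken to be at the floor where 2 or more libraries shared a gene's lowest value, so a single library at the floor could not be recognised. By this rule all 10 enzymes were above the floor in every library. The median SD between replicates was 0.107 to 0.128 in the 4 groups, over the 15517 genes above the floor in all 8 libraries. Ezh1 lay between 1.55 and 1.71 in the Ezh1-present libraries and between -1.94 and -1.55 in the Ezh1-null ones. Ezh2 was 0.25 and 0.23 in Ezh1-present oil, 0.09 and 0.03 in Ezh1-present tamoxifen, -0.12 and -0.03 in Ezh1-null oil, and -0.53 and -0.56 in Ezh1-null tamoxifen. Which Ezh2 exons were deleted is not stated in the labels, so a whole-gene value checks the deletion only in part. All 15 markers of c-kit+ progenitors and blasts were above the floor in every library. Markers of other cell types were present too, and their medians differed between libraries. The 14 erythroid markers measured had medians from -2.48 in Ezh1-present oil replicate 1 to 1.93 in Ezh1-present tamoxifen replicate 2, a library that also had the highest T and NK cell median (2.04). In bulk RNA, fewer cells of a type and less RNA per cell cannot be told apart.

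In oil-treated leukaemia cells without Ezh1, Hk1, Gpi1 and Hk2 were higher than in cells with Ezh1, by 2.27, 2.24 and 1.3 times, and Pfkp was 2.31 times lower. The other 6 enzymes had negative changes between -0.40 and -0.18 that did not pass the test. Thus 3 of 10 enzymes were called higher and 1 lower (limma on all 18051 fitted genes, Benjamini-Hochberg adjusted p under 0.05), while 24.9% of all fitted genes were called, 12.5% higher and 12.4% lower. The median change of the 10 enzymes was -0.24, beside -0.04 over all fitted genes, and the median size of change was 0.37 beside 0.42. The groups did not overlap for 8 of 10 enzymes and for 65.8% of all fitted genes. The counts for the list are thus not far from those of the whole table, and the results below are those of single genes.

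Hk1, the widely expressed hexokinase that binds mitochondria, had values of -1.02 and -0.82 in Ezh1-present oil, -0.61 and -0.01 in Ezh1-present tamoxifen, 0.12 and 0.40 in Ezh1-null oil, and 0.35 and 0.01 in Ezh1-null tamoxifen. Both Ezh1-present oil libraries were the lowest, and the Ezh1-present tamoxifen pair lay far apart. The difference in oil was 1.18 ± 0.25 (SE, n = 2 and 2, 95% interval 0.54 to 1.82, limma adjusted p = 0.0275). Hk2, the inducible hexokinase, was -0.23 and -0.02 in Ezh1-present oil, -0.21 and -0.22 in Ezh1-present tamoxifen, 0.26 and 0.25 in Ezh1-null oil, and 0.07 and 0.02 in Ezh1-null tamoxifen. Every Ezh1-null library was above every Ezh1-present one, and the Ezh1-null oil pair was the highest. Its difference in oil was 0.38 ± 0.10 (SE, limma adjusted p = 0.0488), close to the threshold, and was not called in 13 of 17 alternative settings.

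Gpi1 separated by Ezh1 genotype in every library. Its values were -0.67 and -0.46 in Ezh1-present oil, -0.42 and -0.60 in Ezh1-present tamoxifen, 0.50 and 0.70 in Ezh1-null oil, and 0.47 and 0.42 in Ezh1-null tamoxifen. All 4 Ezh1-null libraries were above all 4 Ezh1-present libraries, with no value near the gene's median. The difference in oil was 1.16 ± 0.13 (SE, 95% interval 0.83 to 1.49, limma adjusted p = 0.00557).

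Pfkp, the platelet-type phosphofructokinase subunit, had the opposite pattern. It was 0.72 and 1.04 in Ezh1-present oil, 0.69 and 0.31 in Ezh1-present tamoxifen, -0.31 and -0.34 in Ezh1-null oil, and -0.40 and -0.35 in Ezh1-null tamoxifen. The 4 Ezh1-null libraries lay within a narrow band below all Ezh1-present ones. The difference in oil was -1.21 ± 0.17 (SE, 95% interval -1.64 to -0.77, limma adjusted p = 0.0096). Pfkl, the liver-type subunit, was 0.17 and 0.54 in Ezh1-present oil, 0.32 and -0.01 in Ezh1-present tamoxifen, -0.02 and 0.01 in Ezh1-null oil, and -0.28 and -0.39 in Ezh1-null tamoxifen. Its difference in oil was -0.36 ± 0.17 (SE, limma adjusted p = 0.196), so the call was made for 1 of these 2 subunits. The difference between Pfkl and Pfkp was not tested. Pfkm, another phosphofructokinase subunit that is outside this list, was also called lower in oil, as given below.

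Calls in oil differed in how far they held. Hk1 lost its call on quantile normalization and on leaving out any 1 of the 4 oil libraries (adjusted p up to 0.121 over all alternatives), and Pfkp lost it without Ezh1-null oil replicate 2 (0.0518). Gpi1 kept its call in 16 of 17 alternatives. With Ezh1-present oil replicate 1 and Ezh1-present tamoxifen replicate 2 left out together, Gpi1 (0.0603), Hk1 and Hk2 were not called.

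**Figure D1:**
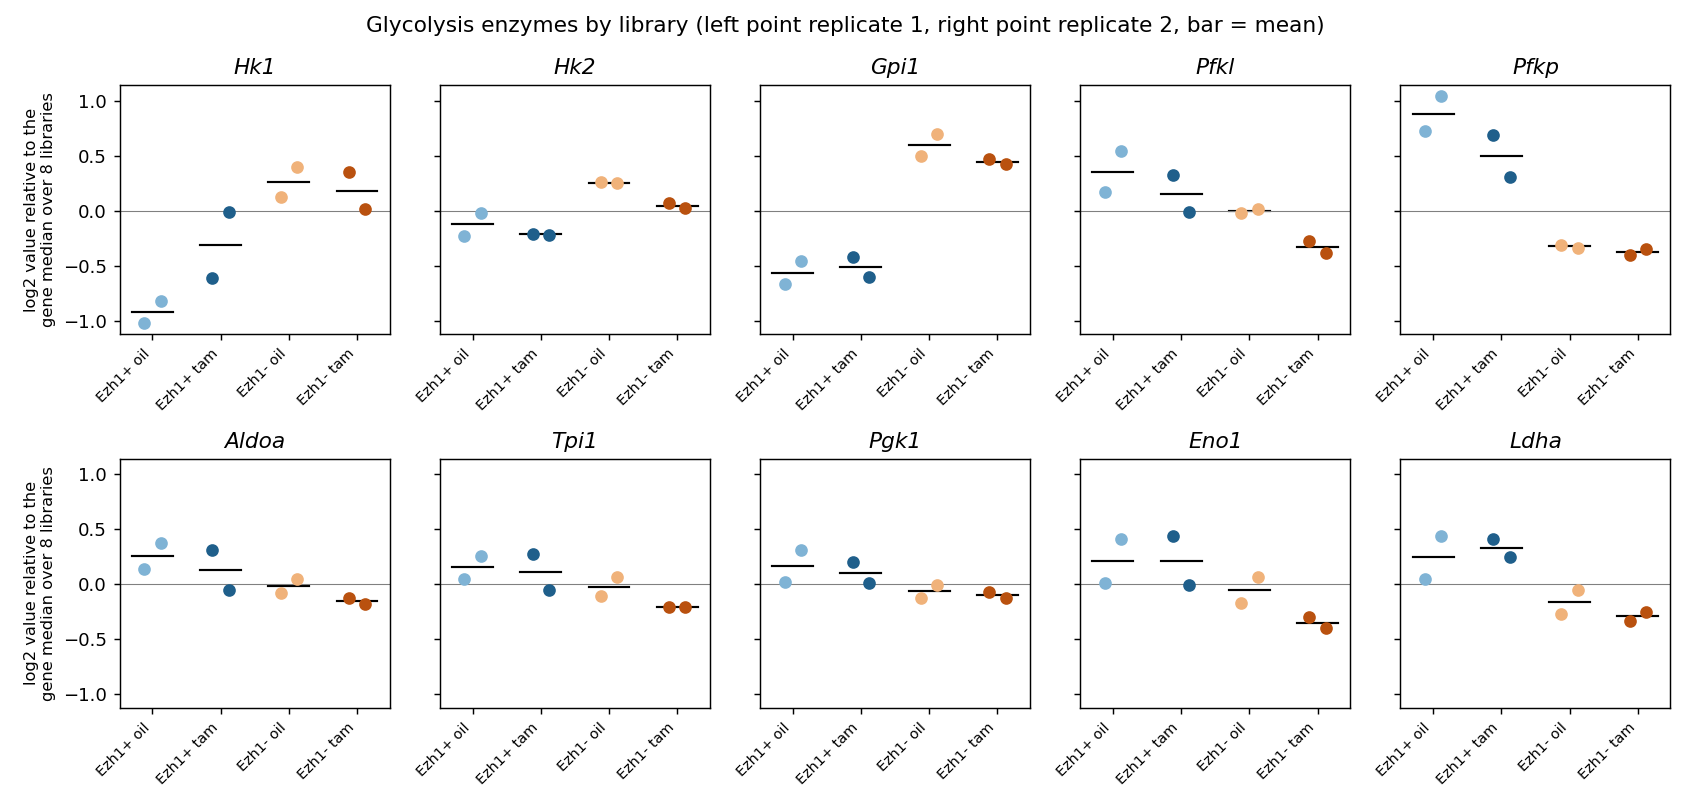
Each panel plots 1 enzyme; the y axis is log2 expression relative to the gene's median over 8 libraries, points are libraries and bars are means of 2 libraries (Ezh1+ is Ezh1-present, Ezh1- is Ezh1-null, tam is tamoxifen). The 4 Ezh1-null libraries are above all others for Gpi1, Hk1 and Hk2, and below all others for Pfkp, Ldha and Pgk1. The nearest Ezh1-null and Ezh1-present libraries are at 0.01 and -0.01 for Hk1, 0.02 and -0.02 for Hk2, and -0.01 and 0.01 for Pgk1.

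None of Aldoa, Tpi1, Pgk1, Eno1 and Ldha passed the test between the oil groups. Aldoa, which splits fructose-1,6-bisphosphate, was 0.14 and 0.38 in Ezh1-present oil, 0.31 and -0.05 in Ezh1-present tamoxifen, -0.08 and 0.05 in Ezh1-null oil, and -0.12 and -0.18 in Ezh1-null tamoxifen. Eno1, the main enolase, was 0.01 and 0.41, then 0.44 and -0.01, then -0.17 and 0.07, and then -0.30 and -0.40 in the same order of groups. Ldha was 0.05 and 0.44, 0.41 and 0.25, -0.27 and -0.05, and -0.33 and -0.25 in that order. In all 3 genes the Ezh1-null tamoxifen pair was the lowest or near it, and replicates of the Ezh1-present oil group lay apart by 0.24 or more. Tpi1, which interconverts the triose phosphates, ranged from -0.21 to 0.28, and Pgk1, an ATP-yielding kinase of the pathway, from -0.12 to 0.31. The differences in oil were -0.40 ± 0.17 for Ldha (SE, limma adjusted p = 0.139) and smaller for Aldoa (-0.28), Eno1 (-0.26), Pgk1 (-0.23) and Tpi1 (-0.18).

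After tamoxifen, where Ezh2 was also deleted in both arms, Gpi1 was higher and Pfkp lower in Ezh1-null cells. Gpi1 was 1.94 times higher (log2 difference 0.96 ± 0.13, SE, n = 2 and 2, limma adjusted p = 0.0185). Pfkp was 1.84 times lower (-0.88 ± 0.17, SE, limma adjusted p = 0.0367). These were 2 of 10 enzymes, 1 higher and 1 lower, beside 12.2% of all fitted genes called, 6.77% higher and 5.44% lower. Leaving out libraries lowered the whole-table count in this comparison from 2204 genes to between 142 and 1332. Hk1 (0.49 ± 0.25, SE, limma adjusted p = 0.248) and Hk2 (0.26, adjusted p = 0.147) did not pass. All 10 enzymes had groups that did not overlap, beside 62.5% of all fitted genes, with 3 positive and 7 negative changes. Among enzymes with negative changes that were not called, Ldha came nearest (-0.62, limma adjusted p = 0.0699), followed in size by Eno1 (-0.57) and Pfkl (-0.49). The median change was -0.30, beside 0.00 over all fitted genes. The Pfkp call was lost in 12 of 17 alternatives, including every fit with 1 library left out. The Gpi1 call was lost without any 1 of the 4 tamoxifen libraries. It was also lost with only the compared groups fitted, and with Ezh1-present oil replicate 1 and Ezh1-present tamoxifen replicate 2 left out together.

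**Figure D2:**
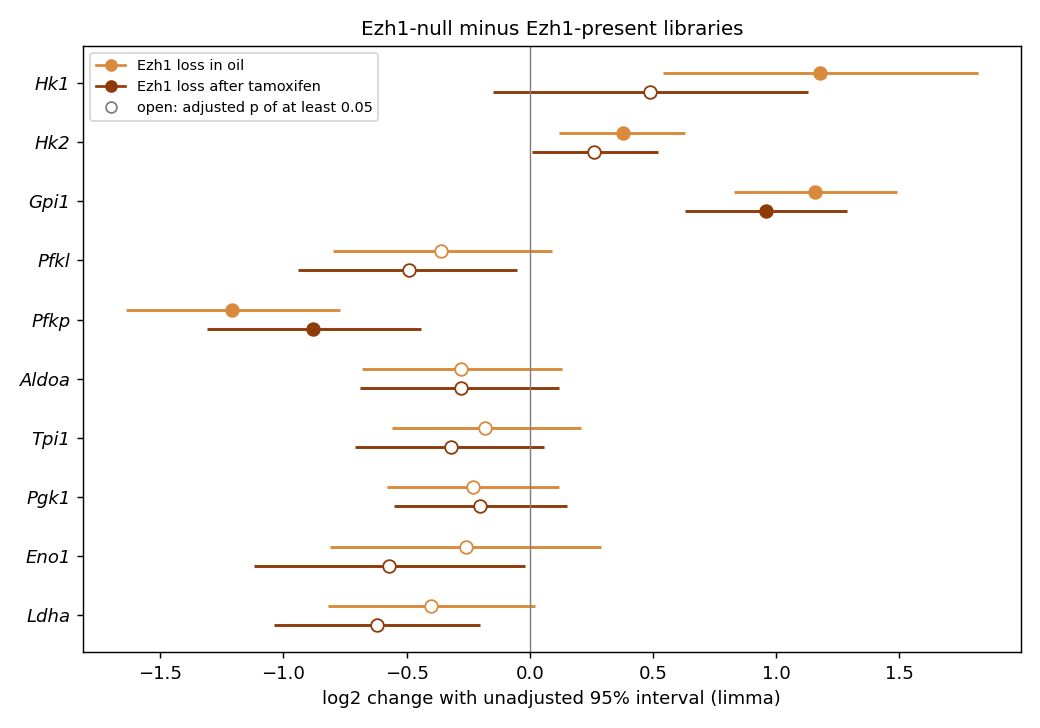
The x axis is the log2 difference, Ezh1-null minus Ezh1-present, with its unadjusted 95% interval from limma, for each enzyme in oil (light) and after tamoxifen (dark); filled points have an adjusted p under 0.05. In oil Hk1, Hk2 and Gpi1 lie to the right and Pfkp to the left; after tamoxifen Gpi1 and Pfkp are filled.

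Cells that lost both Ezh1 and Ezh2 were then set against cells with both intact. Gpi1 was 2.02 times and Hk1 2.15 times higher, and Pfkp 2.39 times and Pfkl lower, in the double-deficient group. The log2 differences were 1.01 for Gpi1 (limma adjusted p = 0.00832), 1.10 for Hk1 (0.0346), -1.25 for Pfkp (0.00947) and -0.69 ± 0.17 for Pfkl (SE, 0.0455). Thus 2 of 10 enzymes were called higher and 2 lower, beside 23.4% of all fitted genes, 13.2% higher and 10.2% lower. The groups did not overlap for 10 of 10 enzymes and for 66.8% of all fitted genes. Pfkl and Pfkp were thus both called lower, although the Pfkl call was lost in 9 of 17 alternatives. Pfkp lost its call without Ezh1-null tamoxifen replicate 1 (0.0527), Hk1 in 9 alternatives and Gpi1 in 1. Hk2 differed by 0.17 (limma adjusted p = 0.278), and Ldha by -0.53 (0.0742). This comparison shares its groups with those above and is no separate evidence.

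Deletion of Ezh2 by tamoxifen, in cells that kept Ezh1, changed none of the 10 enzymes beyond the threshold (limma, 0 of 10 called, and 0 of 10 at an unadjusted p under 0.05), beside 0.903% of all fitted genes called (0.637% higher and 0.266% lower). The groups did not overlap for 2 of 10 enzymes and for 53.8% of all fitted genes. Hk1 had the largest positive value, 0.61 ± 0.25 (SE, 95% interval -0.03 to 1.25, limma adjusted p = 0.26). In the same comparison all 14 erythroid markers had positive values (median 3.07, 0 called, 9 at an unadjusted p under 0.05). All 18 T and NK cell markers did too (median 2.90, 2 called). Most markers of every other marker list were also positive, from 13 of 14 neutrophil (median 1.80) to 9 of 15 progenitor and blast markers (0.20). Of all fitted genes 52.8% were positive. The part of any of these cells in the Hk1 value was not tested. Pfkp had the largest negative one, -0.38 (95% interval -0.81 to 0.06). The other 8 values lay between -0.20 and 0.09. The median was -0.05, and the median size of change was 0.09 beside 0.26 over all fitted genes.

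In cells without Ezh1 the tamoxifen difference was also called for 0 of 10 enzymes by limma, with 0 of 10 at an unadjusted p under 0.05, beside 3.4% of all fitted genes called (3.1% higher and 0.299% lower). All 10 values were negative, from -0.33 for Pfkl and -0.30 for Eno1 to -0.03 for Pgk1. The median was -0.14, beside 0.00 over all fitted genes. Of the 10 genes, 7 had groups that did not overlap, beside 49.2% of all fitted genes. A change in the size of each enzyme's tamoxifen difference with Ezh1 genotype was tested as an interaction. It was called for 0 of 10 enzymes by limma (0 of 10 at an unadjusted p under 0.05), beside 0.476% of all fitted genes. Hk1 had the largest interaction, -0.69 ± 0.36 (SE, 95% interval -1.6 to 0.21, limma adjusted p = 0.427). These intervals are wide, and differences inside them were not detectable with 2 libraries a group.

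**Figure D3:**
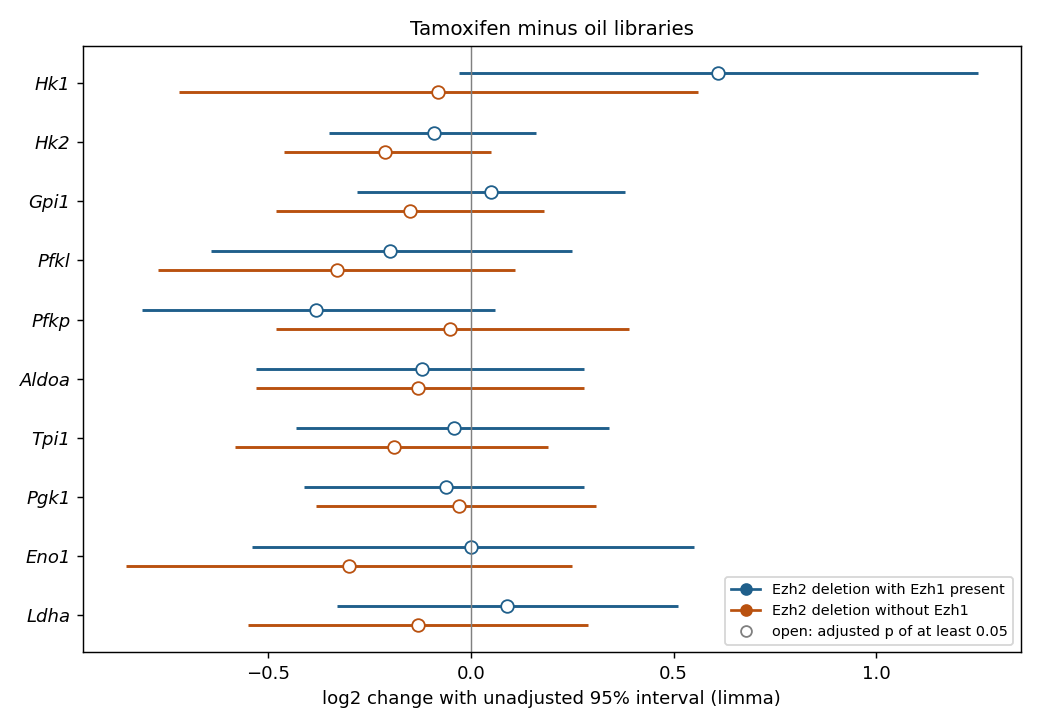
The x axis is the log2 difference, tamoxifen minus oil, with its unadjusted 95% interval from limma, for each enzyme with Ezh1 present (blue) and without Ezh1 (orange). No point is filled, and the Hk1 interval with Ezh1 present runs from -0.03 to 1.25.

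Replicates of a group differed in the same direction for many of the enzymes. In Ezh1-present oil, replicate 2 was above replicate 1 for 10 of 10 enzymes, by a median of 0.26, beside 45.7% of all fitted genes. In Ezh1-present tamoxifen, replicate 2 was below replicate 1 for 9 of 10, by a median difference of -0.26, with Hk1 the exception at 0.61, while 50.4% of all fitted genes were above. In Ezh1-null oil, replicate 2 was above replicate 1 for 8 of 10, and in Ezh1-null tamoxifen below it for 8 of 10, beside 49.2% of all fitted genes above in each. Pfkl, Aldoa, Tpi1, Pgk1, Eno1 and Ldha, a group of 6 picked after the values were seen, had medians of 0.05 and 0.39 in Ezh1-present oil, 0.32 and -0.01 in Ezh1-present tamoxifen, -0.11 and 0.03 in Ezh1-null oil, and -0.24 and -0.23 in Ezh1-null tamoxifen. Within each Ezh1-present group the 2 libraries thus lay as far apart as many of the differences between groups.

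Marker lists of other cell types differed between the same libraries. The erythroid median was -2.48 and -1.09 in Ezh1-present oil, -0.27 and 1.93 in Ezh1-present tamoxifen, 0.00 and 1.41 in Ezh1-null oil, and 0.15 and -0.04 in Ezh1-null tamoxifen. For Ezh1 loss in oil, where 12.5% of all fitted genes were called higher and 12.4% lower, 8 of 14 neutrophil markers, 7 of 12 B cell markers and 3 of 14 erythroid markers were higher and none of these lower. Of 15 c-kit+ progenitor and blast markers 9 were higher and 1, Meis1 (-1.36), lower. Of 18 T and NK cell markers 5 were higher and 2 lower, and of 13 monocyte and macrophage markers 4 were higher and 7 lower. Of 12 megakaryocyte and platelet markers 1 was higher and 2 lower, and of 14 stroma and endothelium markers 3 were lower. The median of the B cell list ran from -1.09 to -0.73 in Ezh1-present libraries and from 0.55 to 3.09 in Ezh1-null ones, and that of the neutrophil list from -2.31 to -0.33 and from 0.36 to 1.75. The T cell marker Trac was at the floor in every library. Because values are centred, levels cannot be summed over a list, and the part of these cells in the enzyme differences was not tested.

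**Figure D4:**
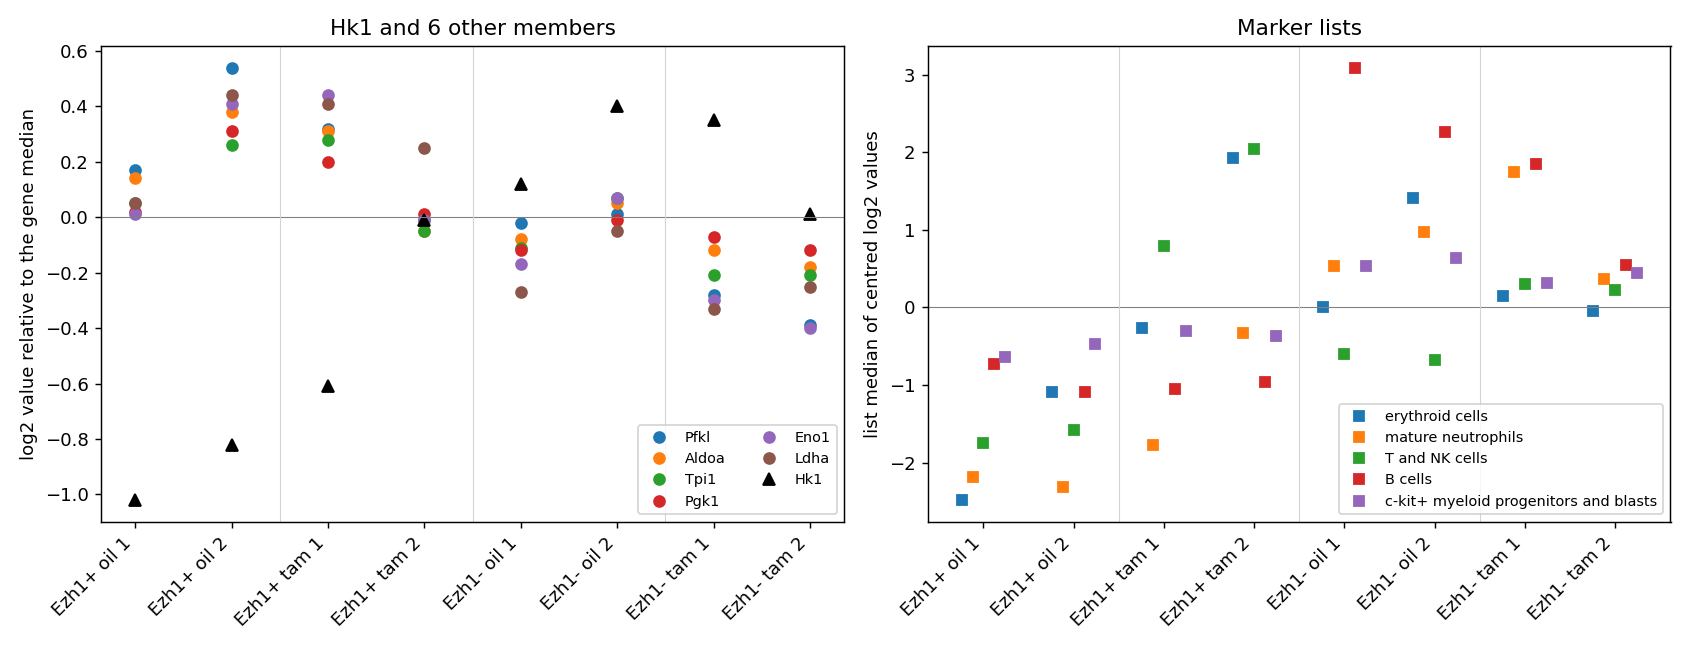
Left, log2 values relative to the gene's median for Hk1 (triangles) and 6 enzymes further along the pathway (circles) in each library; right, medians of the centred log2 values of 5 marker lists in the same libraries. Ezh1-present oil replicate 1 has the lowest Hk1 value (-1.02) and the lowest erythroid (-2.48), T and NK cell (-1.75) and c-kit+ progenitor and blast (-0.64) medians. The neutrophil (-2.31) and B cell (-1.09) medians are lowest in Ezh1-present oil replicate 2. The highest erythroid median (1.93) is in Ezh1-present tamoxifen replicate 2, whose Hk1 value (-0.01) is below those of all Ezh1-null libraries. A link between Hk1 and these markers was not tested.

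Other glycolytic genes and isoenzymes split in both directions when Ezh1 was lost in oil. Of 20 tested, 4 were higher and 4 lower, beside 12.5% and 12.4% of all fitted genes, with a median change of -0.10. Ldhb, the lactate dehydrogenase subunit typical of heart, was higher by 3.25 ± 0.27 (SE, limma adjusted p = 0.00338), and its values were -1.56 and -2.35 in Ezh1-present oil, -1.29 and -1.13 in Ezh1-present tamoxifen, 1.18 and 1.40 in Ezh1-null oil, and 1.13 and 1.33 in Ezh1-null tamoxifen. No Ezh1-null library came near any Ezh1-present one for Ldhb, whereas Ldha had a small negative value. Pgam2, the muscle-type phosphoglycerate mutase, was higher by 0.77 (limma adjusted p = 0.00872). Eno2 and Eno3, the neuronal and muscle enolases, were lower, with differences of -4.39 ± 0.51 and -2.45 ± 0.19 (SE, limma adjusted p = 0.00601 and 0.00292). Hk3 (2.11) and Ldhc were also higher, and Pfkm (-0.91) lower. These last 3 are named after their values were seen, and Ldhc was at the floor in 2 libraries. Gapdh (0.15, limma adjusted p = 0.53), Pkm (0.16, 0.442) and Pgam1 (-0.53, 0.0555) did not pass the test and were likewise picked afterwards.

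The pentose phosphate pathway, the branch that leaves glycolysis at glucose-6-phosphate, had 6 of 9 genes higher and none lower in Ezh1-null oil cells, beside 12.5% of all fitted genes higher, with a median change of 0.67. It was not tested as a set. Pgd, the 6-phosphogluconate dehydrogenase, was higher by 1.28 ± 0.13 (SE, limma adjusted p = 0.00441). Rpia, which forms ribose-5-phosphate, was higher by 1.25 (limma adjusted p = 0.0146). Rpe (0.67) and H6pd (0.63) were higher, as were G6pdx (0.84), the entry enzyme of the pathway, and Tkt (0.69), the transketolase, these last 2 named after their values were seen. After tamoxifen 2 of 9 were called, beside 12.2% of all fitted genes, H6pd (0.63) and Pgd (1.00), and all 9 values were positive.

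Of the transporters and the regulators of glycolysis, 3 of 14 each were called in oil, beside 24.9% of all fitted genes. Of 14 glucose and lactate transporters, Slc2a9 (0.66) and Slc16a1 (0.96), a lactate transporter, were higher, and Slc2a10, at the floor in both Ezh1-null oil libraries, was lower. Of 14 regulators of glycolysis, Pfkfb3 (0.66) and Pfkfb4 (1.6), which set the level of the phosphofructokinase activator fructose-2,6-bisphosphate, were higher, and Txnip (-0.60), which restrains glucose uptake, was lower. Of 6 gluconeogenic genes tested, G6pc3 (0.88) and G6pc were higher, the latter with 4 libraries at the floor, so that no fold is given. Of 23 genes of pyruvate dehydrogenase, the mitochondrial pyruvate carrier and the citric acid cycle, Mpc1 (0.43) and Dlst (0.37) were higher and Pdha1 (-0.51) lower.

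Among 17 regulators of glycolytic genes, 4 were higher and 3 lower in oil, beside 12.5% and 12.4% of all fitted genes. Klf4 was higher by 2.32, Egln1, an oxygen-sensing prolyl hydroxylase, by 0.86, while Epas1, a hypoxia-inducible factor, differed by -1.54. Mlxipl, the carbohydrate-response factor, differed by -4.06 ± 0.16 (SE, limma adjusted p = 0.00167). Hif1a (0.02, limma adjusted p = 0.9) and Myc (0.29, 0.426), named for their known roles, did not pass. Of 18 hypoxia targets outside glycolysis, 4 were higher and 4 lower, beside the same shares of all fitted genes. Egln1 and Egln3 are in both lists, so Egln1 is counted among the higher genes of each. Vegfa (3.93 ± 0.23, SE, limma adjusted p = 0.00215), Mxi1 (2.37) and Bnip3l (1.09) were higher and P4ha2 (-2.33) lower. The other lower genes of this list are not named here. Known hypoxia targets were thus called in both directions in these cells.

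**Figure D5:**
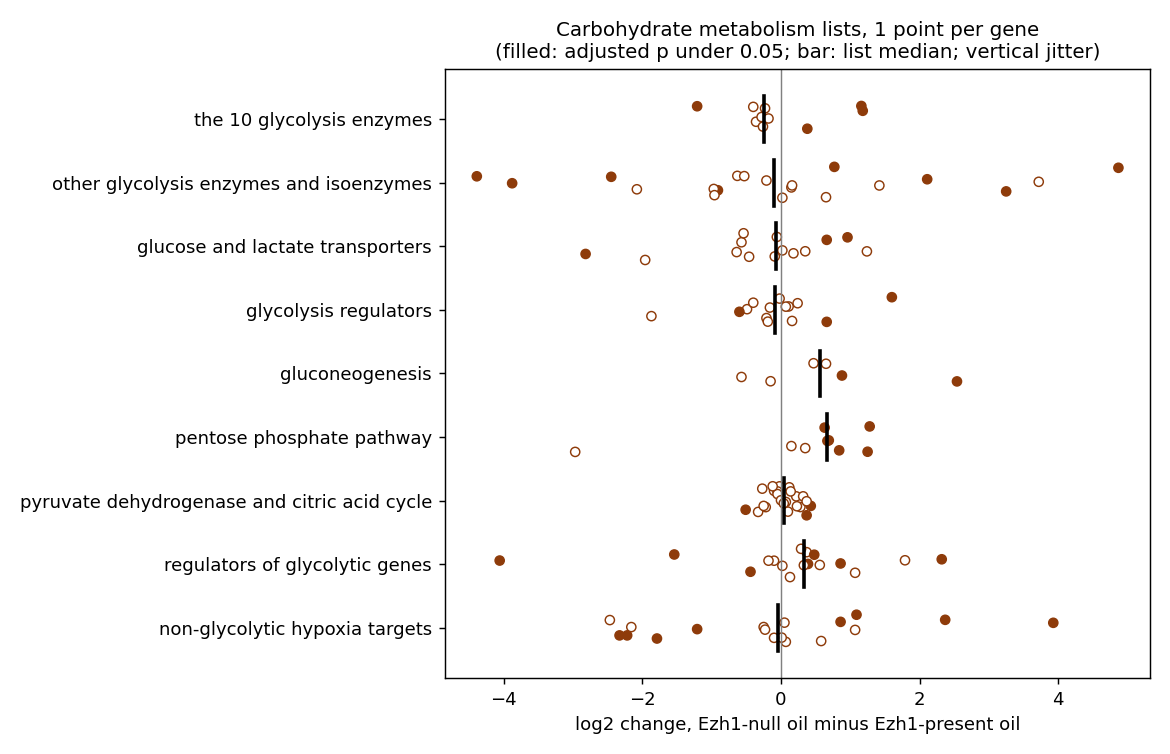
The x axis is the log2 change, Ezh1-null oil minus Ezh1-present oil, with 1 point per gene in 9 lists, filled where the adjusted p is under 0.05; bars are list medians. The pentose phosphate list has a median of 0.67 and the 10 glycolysis enzymes one of -0.24.

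After tamoxifen, where 12.2% of all fitted genes were called against 24.9% in oil, none of the 8 pathway lists had more calls than in oil. Of the 20 other glycolytic genes 3 were higher and 2 lower, with Ldhb at 2.44 (limma adjusted p = 0.0134), Pgam2 at 1.2 and Eno3 at -1.64. Vegfa was higher by 3.0. Between tamoxifen and oil in Ezh1-null cells, 3.4% of all fitted genes were called. Pgam2 was the only called gene of the other glycolytic list there (0.91, limma adjusted p = 0.0198). Mlxipl was the only one of the regulators of glycolytic genes (3.95, limma adjusted p = 0.00185). Of the gluconeogenic genes Fbp1 (1.47) and Pcx (0.90) were higher and G6pc was lower.

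Of the 10 enzymes, 6 overlap an annotated gene on the opposite strand in GENCODE: Gpi1 (Gm26762), Hk1 (Hk1os), Hk2 (Gm17034), Pfkp (Pitrm1), Aldoa (Fam57b) and Tpi1 (Spsb2). Whether the authors counted reads by strand is not given in the sources used here, and without strand such reads cannot be told apart. Pitrm1 itself had values of -0.17 in oil and -0.44 after tamoxifen for Ezh1 loss, each smaller in size than that of Pfkp. Fam57b differed by -3.43 in oil (limma adjusted p = 0.0166), where Aldoa differed by -0.28. Spsb2 differed by -0.22 in oil and 0.15 after tamoxifen, beside -0.18 and -0.32 for Tpi1. Centred values do not show how many reads such a gene could add, and its part in the enzyme values was not tested. The overlapping genes of Gpi1, Hk1 and Hk2 were not among the fitted genes.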

How the data were processed

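A TruSeq kit was used on 1 µg of RNA per library, per the labels' protocols, and the genome build was mm10, per the submitters' processing notes. The choice of aligner, counter and scaling is not given in the sources used here. The deposited log2 values had been normalised by the authors and, as computed from the file, centred on each gene's median. Genes were filtered by the authors on the 20th to 100th percentile of raw data, per the file headers. The authors also deposited a signed fold change, treated as a score, and an unsigned ratio; neither was used for a test. The smaller deposited table holds 4576 rows with identical values and none of the 10 enzymes. Depth is unknown, so no counting interval was computed.

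One coefficient per group was fitted with limma 3.58.1 in R 4.3.3 to the 18051 rows with at least 2 of 8 libraries above the floor, with empirical Bayes moderation and 4 residual degrees of freedom. P-values were adjusted by Benjamini-Hochberg over all of them and called under 0.05. The fit was tested on simulated data. An exact permutation test of 2 against 2 libraries cannot go below 0.333. Alternatives were 2 normalizations, 2 filters, library weights, robust moderation, a fit of the compared groups only, a replicate block, each of 8 libraries left out, and 1 chosen after seeing the data, with 2 libraries left out together. Named genes are the 10 enzymes, Ezh1, Ezh2, up to 4 called genes per other list by smallest adjusted p, and the 5 genes most and 5 least like the mean profile; others are marked as picked afterwards. One called gene of a list is not reported here by name. The members and lists were chosen with earlier results of these data known. Promoters came from RefSeq on GRCm38.p6, the window nearest the deposited gene start; all 10 matched. Overlapping genes came from GENCODE vM21.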

Additional observations from a re-analysis of the deposited data

Results flagged for a closer look

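The interaction test passed its threshold for none of the 10 enzymes (limma, 0 at an unadjusted p under 0.05) and for 2 genes of the other pathway lists, beside 0.476% of all fitted genes. Mlxipl, the carbohydrate-response factor, had an interaction of 3.46 on the log2 scale (limma adjusted p = 0.0139), with values of 0.16 and -0.06 in Ezh1-present oil, 0.70 and 0.38 in Ezh1-present tamoxifen, -3.95 and -4.07 in Ezh1-null oil, and 0.06 and -0.18 in Ezh1-null tamoxifen. It was called in 9 of 16 alternatives (adjusted p from 0.0139 to 0.144). Slc2a10, a sugar transporter, had a fitted interaction of 2.68 (limma adjusted p = 0.041), which rests on 2 Ezh1-null oil libraries at the floor (-3.77 in both) and is no bound. Its other values were -0.93 and -0.96 in Ezh1-present oil, 1.46 and 0.93 in Ezh1-present tamoxifen, and 0.94 and 1.16 in Ezh1-null tamoxifen.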

How the results depend on the processing

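Of 1010 recomputed values for the 10 enzymes, 923 kept their direction and side of the threshold, 59 lost a call and 28 changed sign. Every sign change was in a value that had not been called. Only calls of the main fit could be lost, 4 for Ezh1 loss in oil, 2 after tamoxifen and 4 for both lost. Each of these was refitted in 17 alternatives, so the 59 lost calls are not to be read against all 1010 values. The cause of these changes was not tested. With Ezh1 lost after tamoxifen, 1 enzyme was called on quantile normalization and 0 with only the compared groups fitted, against 2. Leaving out libraries gave 1 to 3 called in oil (median change -0.38 to -0.08), 0 to 1 after tamoxifen (median -0.47 to -0.13) and 1 to 4 for both lost against both intact.

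The labels used here do not say whether libraries with the same replicate number were prepared together. Their deviations from the group means had correlations from -0.091 to 0.124 between groups, which cannot decide this. The replicate block gave 1 enzyme called for Ezh1 loss after tamoxifen and 2 for both lost against both intact.

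Tamoxifen differences with Ezh1 present changed sign on quantile normalization for Gpi1 (-0.24) and Eno1 (-0.03). Over left-out libraries they ran from -0.06 to 0.16 for Gpi1, -0.20 to 0.01 for Hk2, -0.30 to 0.06 for Aldoa, -0.21 to 0.12 for Tpi1, -0.21 to 0.08 for Pgk1, -0.22 to 0.23 for Eno1 and -0.11 to 0.28 for Ldha. Without Ezh1 they ran from -0.25 to 0.09 for Hk1 and -0.09 to 0.03 for Pgk1. Interactions ran from -0.32 to 0.05 for Pfkl, -0.19 to 0.17 for Aldoa, -0.31 to 0.02 for Tpi1 and -0.11 to 0.17 for Pgk1. On quantile normalization Ezh1 itself changed sign, at -0.79 for tamoxifen without Ezh1 and -0.38 for the interaction.

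Over all fitted genes, fitting only the compared groups lowered calls from 163 to 0 for Ezh2 deletion with Ezh1 present (3713 genes at an unadjusted p under 0.05 in limma with all groups), 614 to 350 without Ezh1, 4493 to 2797 for Ezh1 loss in oil, 2204 to 115 after tamoxifen and 4229 to 2815 for both lost. The interaction had 86 calls, 39 on quantile normalization and 6 with all 8 libraries above the floor. Leaving out libraries gave 0 to 280 calls for Ezh2 deletion with Ezh1 present, 55 to 479 without Ezh1, 594 to 3959 for Ezh1 loss in oil, 142 to 1332 after tamoxifen, 595 to 3692 for both lost and 0 to 75 for the interaction. With 2 libraries a group, small differences cannot be resolved.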

Other observations

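Across the 8 libraries, the mean centred profile of the 10 enzymes was set beside 12323 genes above the floor in every library with a range of at least 0.43. This mean ran only from -0.15 in Ezh1-null tamoxifen replicate 2 to 0.21 in Ezh1-present oil replicate 2. It averages enzymes that differed in opposite directions between Ezh1 genotypes, such as Gpi1 and Pfkp, and does not describe them singly. The profiles most like it were those of Aarsd1 (Pearson r = 0.946), Glod4 (0.93), Nudt1 (0.919), Gm4735 (0.915) and Coq4 (0.913). The most opposite were Trim34b (-0.993), Scarf2 (-0.969), H2-Q2 (-0.964), Gm12185 (-0.957) and Ift81 (-0.956). These are descriptions over 8 libraries that share their normalization, in a search over many genes, and carry no test.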
